A study of Drosophila melanogaster with 3 samples.

Results

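Vrille binding was examined at 10 genes of Decapentaplegic (Dpp) signalling, of 13945 protein-coding genes in all: the ligand genes dpp and gbb, the receptor genes tkv, sax and put, the Smad genes Mad and Med, the nuclear effector gene shn, and the target genes brk and Dad. The genes were chosen by name, with earlier results of these data known. A peak was given to a gene when its summit lay in the gene or within 1 kb of it. The data are chromatin immunoprecipitation followed by sequencing (ChIP-seq) with an antibody against GFP, from a transgenic Drosophila melanogaster line (strain vri-GFP) in which GFP is fused to the C terminus of vri. Whole white prepupae, animals at the onset of metamorphosis, were taken with males and females pooled, in 3 biological replicates that form the 1 group of the study. All replicates carry the same fusion, and no list from untagged animals was analysed here. The labels do not say whether the fusion replaces the native protein or adds to it. Because whole animals were used, binding in few cells and weak binding in many cells cannot be told apart.

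Dpp is a secreted signal of the bone morphogenetic protein family that patterns the embryo, the imaginal discs and the gut. It acts through type I and type II receptor kinases, which phosphorylate the Smad protein Mad. Mad enters the nucleus with Medea, the product of Med, and together with the zinc-finger protein Schnurri (shn) it silences brk, whose product Brinker otherwise represses Dpp target genes. Dad is an inhibitory Smad that is itself switched on by the pathway. Vrille is a basic leucine zipper (bZIP) repressor of the circadian clock, and vri was first described through mutations that enhance the embryonic defects of dpp mutants.

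The windows below show the bases around the summits on which the results turn: the strongest intron peaks of tkv and Dad, the strongest peak of dpp, the ligand gene, and the promoter peak of brk. Each holds 101 bases centred on the summit, read 5′ to 3′ on the strand of the gene, from the RefSeq copy of the dm6 assembly. Capitals mark matches, on either strand, to the VP box of Vrille and its relative Pdp1 (TTACGTAA or TTATGTAA), to the Brinker site (GGCG followed by any pair of the pyrimidines C and T) and to the GAGAG core of GAGA factor. A C/EBP-type bZIP site (TTACGCAA, TTACGTAA, TTGCGCAA or TTGCGTAA) was searched too, and it shares TTACGTAA with the VP box.
tkv intron, chr2L:5254267-5254367, minus strand: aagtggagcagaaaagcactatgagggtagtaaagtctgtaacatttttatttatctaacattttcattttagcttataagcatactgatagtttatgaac
tkv intron, chr2L:5256121-5256221, minus strand: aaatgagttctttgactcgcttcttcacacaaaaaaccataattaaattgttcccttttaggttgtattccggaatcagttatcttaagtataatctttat
tkv intron, chr2L:5261368-5261468, minus strand: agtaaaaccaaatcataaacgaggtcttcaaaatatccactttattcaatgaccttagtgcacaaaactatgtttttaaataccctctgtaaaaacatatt
Dad intron, chr3R:17056382-17056482, plus strand: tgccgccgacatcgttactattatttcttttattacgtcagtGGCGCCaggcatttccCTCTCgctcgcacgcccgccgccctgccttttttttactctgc
Dad intron, chr3R:17065113-17065213, plus strand: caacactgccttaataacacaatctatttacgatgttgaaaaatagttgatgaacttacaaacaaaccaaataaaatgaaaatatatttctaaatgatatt
Dad intron, chr3R:17067931-17068031, plus strand: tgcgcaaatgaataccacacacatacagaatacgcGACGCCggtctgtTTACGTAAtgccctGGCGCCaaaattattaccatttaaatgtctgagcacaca
dpp intron, chr2L:2433592-2433692, plus strand: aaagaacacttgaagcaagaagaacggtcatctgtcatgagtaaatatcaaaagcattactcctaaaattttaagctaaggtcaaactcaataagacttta
brk promoter, chrX:7307718-7307818, plus strand: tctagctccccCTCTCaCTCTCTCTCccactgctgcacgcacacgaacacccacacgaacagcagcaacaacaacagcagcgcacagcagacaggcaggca
The 3 windows of tkv and the one of dpp hold none of these motifs and are rich in A and T, with 29.7%, 29.7%, 28.7% and 31.7% G and C in the order printed. The first Dad window, at 53.5% G and C, has a Brinker-site match and a GAGAG match to either side of its summit. The last Dad window has the palindrome TTACGTAA over its summit, with a Brinker-site match on each flank. The window upstream of brk, at 59.4% G and C, has GAGAG repeats on its 5′ side.

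The values are the peak lists that the authors made from their reads, each entry with a signal value, in dm6 coordinates. There were 30000 entries for each replicate and 30000 for the pooled reads, and 9264 peaks in the authors' list of reproducible, or optimal, peaks. The median signal at optimal peaks was 88.2, 50.8 and 84.9 in replicates 1, 2 and 3, and the lists give no read counts, so depth is unknown. Each replicate's signal was therefore divided by that median. In the resulting relative signal 1 is the median optimal peak, and ranks count from the highest optimal peak of the pooled list.

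An optimal summit lay in or within 1 kb of 9 of the 10 Dpp signalling genes, against 4733 of 13945 protein-coding genes (33.9%). A promoter summit, within 1 kb of one of the gene's own start sites, was found at 8 of the 10, against 27.5% of all genes. An intron summit, in no exon and over 1 kb from the gene's start sites, was found at 5 of the 10 (dpp, tkv, put, shn and Dad), against 9.16% of all genes. With the pooled list, which also holds background, 9 of 10 genes had an entry, against 48.7%. The gene without any was gbb. Among the genes of at least 50 kb, counted with 1 kb to each side, 65.5% had an optimal summit. The members' shares were not matched for gene length, and the members were chosen with earlier results of these data known.

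The 9 genes held 74 optimal summits in 61 separate peak intervals: 23 in promoters, 47 in introns, 1 in an exon and 3 in flanks. Of these, 58 (78.4%) were at shn, tkv and Dad. Of the 12 summits among the 500 highest of the optimal list, 11 were at those 3 genes and the other was beside Med. Introns held 63.5% of the members' summits, against 34.2% for all protein-coding genes. For all genes a summit was counted once for each gene it was given to, 11316 in all, whereas the members' 74 are distinct summits. The members' intron summits had a median relative signal of 1.61, with quartiles of 0.864 and 2.94, against a median of 0.931 for intron summits of all genes. Relative signal was above 4 at 7 of their 47 intron summits (14.9%), against 3.15% for all genes, and those 7, in 5 intervals, were all at tkv, shn and Dad. At promoter summits the medians were 1.01 for the members and 1.09 for all genes. Summits that lie in 1 interval can share a replicate value, that of the highest overlapping entry, so a weaker summit can carry the value of a stronger one. The shn intron summit at 11202743 counts as 4.11, while its own pooled signal was 0.957 of the median optimal peak. The medians and the counts above 4 include such summits.

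**Figure D1:**
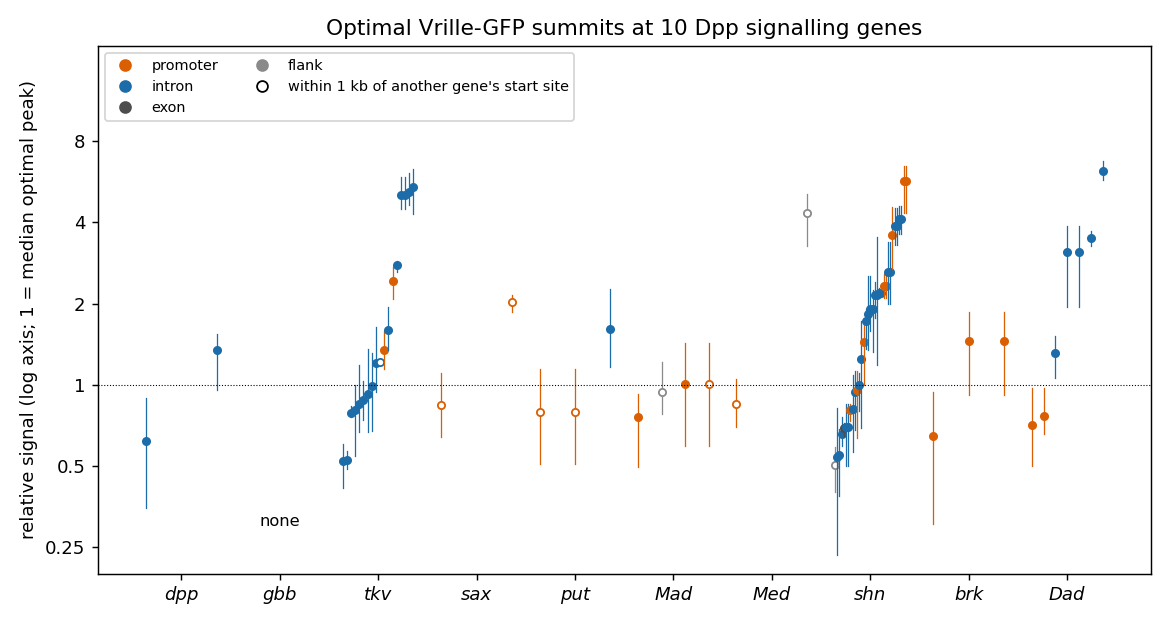
Relative signal (log axis) of every optimal summit at the 10 genes, in pathway order, with points for the mean of the replicates, lines for their range and colours for the position of the summit. Open points lie within 1 kb of the start site of another gene; gbb has no optimal summit, and the highest intron points are those of tkv and Dad.

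The replicates held the same peaks at most of these sites. An overlapping entry was present in all 3 replicates for 73 of the 74 summits, and the exception was the weaker summit of dpp. Such entries were also the rule elsewhere: of all 9264 optimal peaks, 20, 140 and 68 had none in replicates 1, 2 and 3. For 61 of the members' summits (82.4%) the overlapping entry was among the 9264 highest of each replicate, against 70.5% of all optimal peaks. The median SD of relative signal was 24.2% of the mean at the members' summits and 21.6% at all optimal peaks.

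The ligand gene dpp (2L, 2428372 to 2459823) had 2 optimal summits, both in the intron that separates its most upstream start site from the next one. The stronger, at 2433642 and 5270 bp from the start of dpp-RA, had relative signals of 1.52, 0.958 and 1.55 in replicates 1, 2 and 3 (mean 1.34 ± 0.334, SD, n = 3) and rank 2394. Its window is printed above. The weaker, 4614 bp from that start, had 0.350 and 0.894 in replicates 1 and 3 and no entry in replicate 2, with rank 8353. Replicate 2 was the lowest at the stronger summit and empty at the weaker one. No optimal summit lay within 1 kb of any of the 4 start sites of dpp, and the only pooled entry there, 50 bp from the start of dpp-RA, had rank 26989. Its window of 33.5 kb held 0.598 optimal summits per 10 kb. The mean was 0.912 over all genes and 0.536 over the 336 genes with windows of at least 50 kb, of which 125 were denser than dpp.

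The other ligand gene, gbb, whose product is a second bone morphogenetic protein that signals alongside Dpp, had neither an optimal nor a pooled entry. Its single entry was in replicate 1, 488 bp from the start site, with rank 24279 in that list and an undivided signal of 15.0. The nearest optimal summit was 1163 bp from the start of gbb, outside the 1 kb window.

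Among the receptor genes, tkv (2L, 5219000 to 5271384), which encodes the type I receptor Thickveins, had 18 optimal summits, 2 in promoters and 16 in introns. Between the most upstream start site, that of tkv-RA, and the next one, that of tkv-RC, lie 27.2 kb, and 12 of the 18 summits were there. They included all 4 tkv summits with a relative signal above 4, which form 3 separate peak intervals.

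The strongest of these peaks, at 5254317 and 10178 bp from the nearest start site, had relative signals of 5.64, 4.29 and 6.29 in replicates 1, 2 and 3 (mean 5.41 ± 1.02, n = 3; rank 113). The peak at 5256171 had 4.79, 4.48 and 5.88 (mean 5.05 ± 0.739; rank 140). The peak at 5261418 had 4.64, 4.83 and 6.10 (mean 5.19 ± 0.794; rank 135). The ranges of the 3 peaks overlap, replicate 3 was the highest at each, and the printed windows of all 3 hold none of the searched motifs. A further intron peak, at 5249968, had 2.89, 2.62 and 2.80 (mean 2.77 ± 0.136; rank 599), lower than the 3 strongest in every replicate. The other 7 summits of this stretch that share no interval with those had mean relative signals between 0.847 and 1.60. One of them, at 5263975, lies within 1 kb of the start of Cyp4ac1, a gene nested in tkv. The 4 intron summits of tkv outside this stretch had mean relative signals between 0.523 and 0.810.

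The promoters of tkv were occupied unequally. The start of tkv-RB had a summit 242 bp away, with relative signals of 2.49, 2.08 and 2.74 (mean 2.43 ± 0.335, n = 3; rank 873). The start of tkv-RD had one 50 bp away, with 1.15, 1.59 and 1.32 (mean 1.35 ± 0.222; rank 2592). The first was above the second in every replicate. The starts of tkv-RA and tkv-RC had no optimal summit and only pooled entries of rank 9381 and 10074. The strongest intron peak exceeded the tkv-RB promoter peak by ratios of 2.27, 2.07 and 2.29 in the 3 replicates (mean 2.21 ± 0.124). The peak at the tkv-RB promoter holds a VP box TTATGTAA 117 bp from its summit, outside the 101 bases used for the motif counts.

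The second type I receptor gene, sax (2R, 7806484 to 7810067), encodes Saxophone, a receptor for which Gbb is a main ligand. Its stronger summit, 771 bp upstream of a start site, had relative signals of 2.08, 1.86 and 2.16 (mean 2.03 ± 0.157, n = 3; rank 1146). The other, 55 bp upstream of that start, had 1.11, 0.768 and 0.644 (mean 0.839 ± 0.239; rank 4801). The stronger summit was higher in each replicate. Both lie within 1 kb of the start of Nop17l, and the stronger is inside that neighbouring gene, so the assignment to sax is shared.

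Punt, the type II receptor that activates both type I receptors, is encoded by put (3R, 14619030 to 14625703). Its highest summit was in an intron, 1400 bp from the start, with relative signals of 1.16, 1.41 and 2.26 (mean 1.61 ± 0.574, n = 3; rank 1894). Promoter summits 147 and 461 bp downstream of the start share 1 interval, with 0.739, 1.14 and 0.508 (mean 0.796 ± 0.320). The intron peak was the higher in every replicate, by most in replicate 3. The promoter summits also lie within 1 kb of the start of the histone gene His4r.

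The Smad genes had weak promoter peaks. Mad (2L, 3146056 to 3159643), the receptor-regulated Smad, had a promoter peak 746 bp downstream of the start of Mad-RA with relative signals of 0.596, 0.996 and 1.43 (mean 1.01 ± 0.419, n = 3; rank 3713). A second summit in that interval is 542 bp from the start and also near the start of gkt. A summit 667 bp upstream of the start of Mad-RB had 0.497, 0.850 and 0.927 (mean 0.758 ± 0.230). Both peaks were lowest in replicate 1, and their ranges overlap. A summit just beyond the 3′ end, within 1 kb of the starts of ND-B14.5B and toc, had 1.22, 0.782 and 0.826 (mean 0.943 ± 0.241).

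Medea, the partner Smad shared by bone morphogenetic protein and activin signalling, is encoded by Med (3R, 31611046 to 31615375). Its promoter summit, 341 bp downstream of the start, had relative signals of 1.05, 0.810 and 0.698 (mean 0.853 ± 0.180, n = 3; rank 5219). This summit lies within the neighbouring cyclin gene CycG and within 1 kb of a start of CycG, so its assignment to Med is shared. A far stronger peak, with 5.11, 3.27 and 4.59 (mean 4.33 ± 0.950; rank 185), lay downstream of the 3′ end. That summit is within 1 kb of the starts of CG1792 and Mnat9, and 5130 bp from the start of Med.

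The effector gene shn (2R, 11159086 to 11217394) was the most densely occupied of the long genes. It encodes Schnurri, the large zinc-finger protein that Mad and Medea recruit to silence brk. It held 33 optimal summits in 25 intervals: 8 in promoters, 23 in introns, 1 in an exon and 1 in the 3′ flank. Only 1 protein-coding gene held more. Of the 336 genes whose window, the gene and 1 kb to each side, is at least 50 kb long, 65.5% had an optimal summit and the median was 2 summits. At shn the density was 5.47 per 10 kb, and 0 of those 336 genes had a higher one. For tkv it was 3.31 per 10 kb, and 4 of them were denser. The mean over the 336 genes was 0.536 per 10 kb. The replicate lists gave a like picture, with 32 of the 9264 highest entries at shn in each replicate, and 20, 21 and 20 at tkv.

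**Figure D2:**
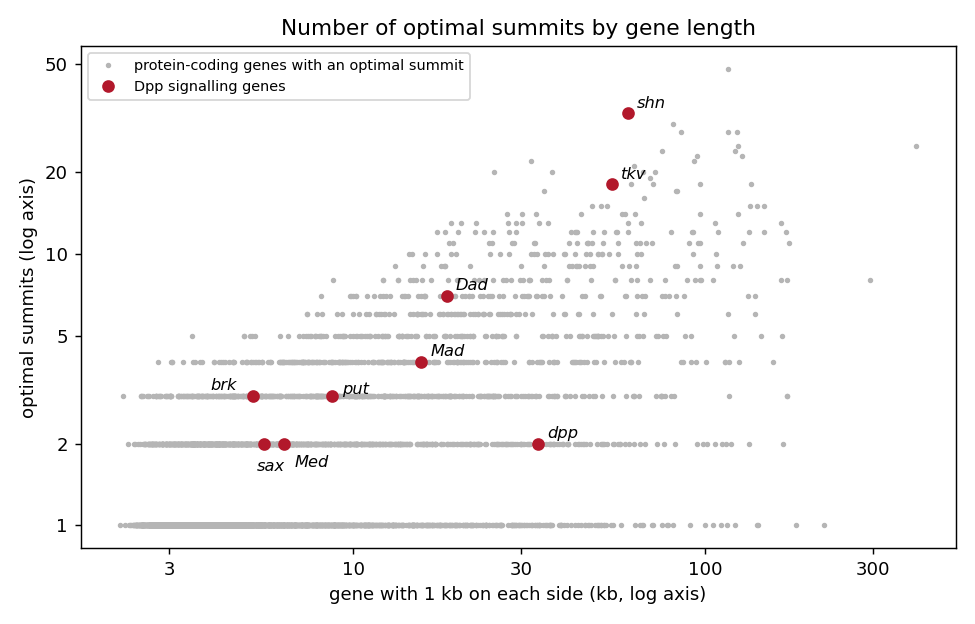
Number of optimal summits of each protein-coding gene with at least 1 (grey) against the length of the gene with 1 kb on each side, both on log axes; the 9 Dpp signalling genes with a summit are in red. shn, with 33 summits, lies at the upper edge for its length; genes with no summit are not drawn.

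The highest peak of shn was a promoter peak, 165 bp upstream of the start shared by shn-RD and shn-RF, with relative signals of 6.34, 6.47 and 4.32 in replicates 1, 2 and 3 (mean 5.71 ± 1.20, n = 3; rank 106). An intron peak at 11202544 had 4.58, 4.11 and 3.63 (mean 4.11 ± 0.478; rank 243). The ratio of that intron peak to the promoter peak was 0.723, 0.635 and 0.838 (mean 0.732 ± 0.102), below 1 in every replicate. By the highest peaks, the order of intron and promoter was thus the reverse of that in tkv. By the medians over summits it was not: promoter summits had 2.32 and intron summits 1.91 in shn, and 1.89 and 1.10 in tkv. An intron peak at 11175559 had 3.30, 4.51 and 3.87 (mean 3.89 ± 0.606; rank 288), and a peak at 11203637, 992 bp upstream of the start of shn-RC, had 3.52, 4.55 and 2.68 (mean 3.58 ± 0.936; rank 364). The ranges of these last 3 peaks overlap. Starts of shn-RA, shn-RB and shn-RC also had optimal summits, whereas the most upstream start, that of shn-RE, had no entry of the pooled list within 1 kb, and the nearest optimal summit was 14552 bp away. The other summits of shn that share no interval with these 4 peaks had mean relative signals between 0.507 and 2.62.

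**Figure D3:**
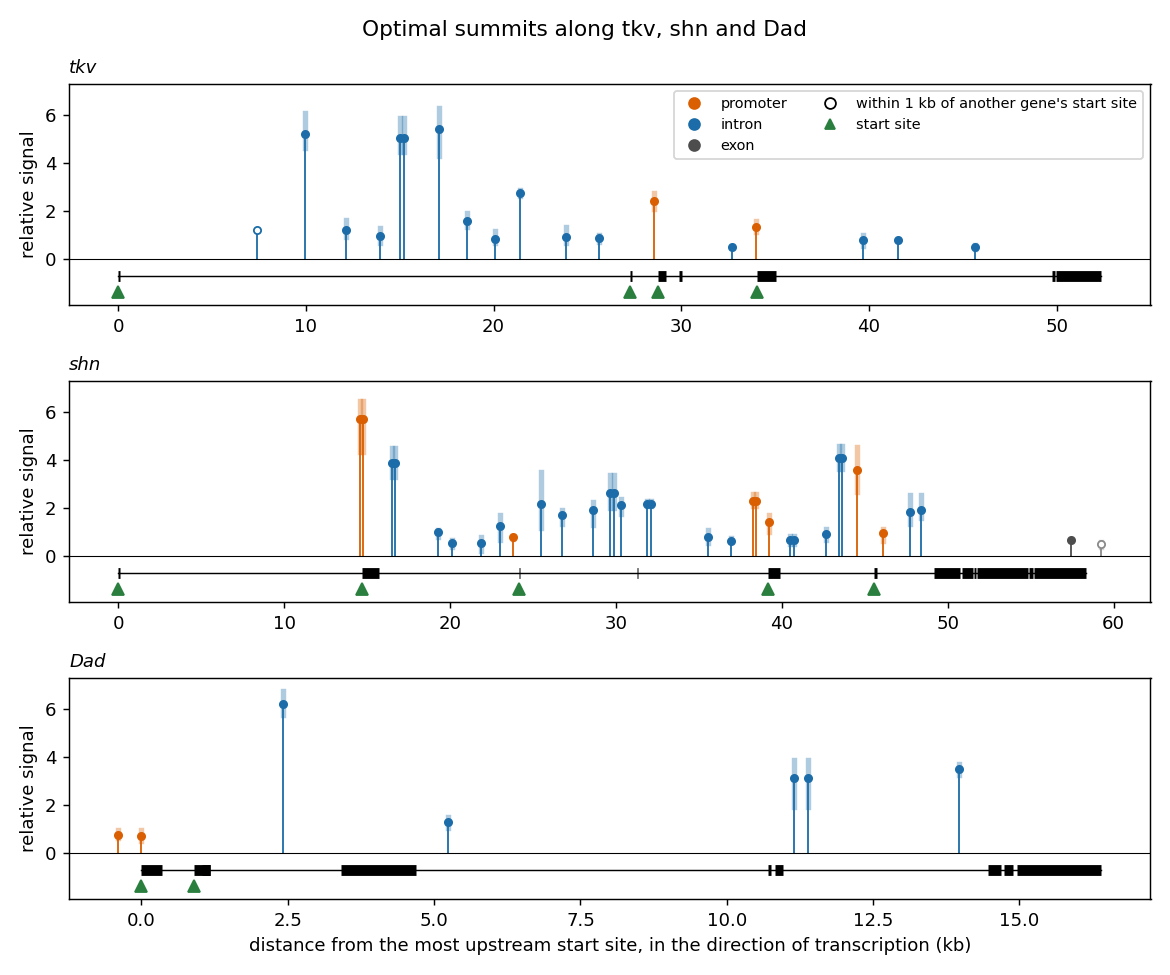
Mean relative signal of the optimal summits along tkv, shn and Dad, placed by distance in kb from the most upstream start site in the direction of transcription, with shaded bars for the range of the replicates, black boxes for exons and triangles for start sites. The 3 strong peak intervals of tkv lie between its first and second start sites, the strongest of shn lies at its second start site, and those of Dad lie in introns.

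Of the target genes, Dad (3R, 17054007 to 17070408) had the highest peak of the 10 genes by the mean, but first place in replicate 2 only, and its range overlapped those of shn and tkv. It had 7 optimal summits, 2 in the promoter and 5 in introns. The highest, 1535 bp from the start of Dad-RB and ahead of the coding sequence, had relative signals of 6.14, 6.74 and 5.75 in replicates 1, 2 and 3 (mean 6.21 ± 0.496, n = 3; rank 84). The intron peak at 17067981, whose window holds the VP box, had 3.72, 3.54 and 3.27 (mean 3.51 ± 0.223; rank 370). The intron peak at 17065163 had 3.50, 1.95 and 3.89 (mean 3.11 ± 1.03; rank 422) and shares its interval with the summit at 17065390. The first was above both others in every replicate, and the ranges of those others overlap. A further intron summit, at 17059246, had 1.52, 1.36 and 1.06 (mean 1.31 ± 0.235).

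The promoter of Dad was weakly occupied. A summit 397 bp upstream of the first start had relative signals of 0.661, 0.661 and 0.974 (mean 0.765 ± 0.181, n = 3; rank 6013), and one 15 bp upstream had 0.661, 0.500 and 0.974 (mean 0.712 ± 0.241; rank 9210). The 2 summits lie in separate intervals but take their values in replicates 1 and 3 from the same entries. All 5 intron summits were above both promoter summits in each replicate. The highest intron peak exceeded the stronger promoter peak by ratios of 9.28, 10.2 and 5.91 (mean 8.46 ± 2.26).

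The other target gene, brk (X, 7307939 to 7311132), has an annotated exon that spans the whole gene, and so no intron. Its peaks were at the promoter. The strongest, 171 bp upstream of the start, had relative signals of 1.86, 0.921 and 1.59 (mean 1.46 ± 0.486, n = 3; rank 2019) and shares its interval with a summit 30 bp downstream. The summit 913 bp upstream had 0.305, 0.688 and 0.945 (mean 0.646 ± 0.322; rank 8636). The stronger peak was the higher in every replicate, by most in replicate 1, and their ranges overlap. All 3 summits are inside the longer gene CG1677, in which brk lies.

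Ordered by the mean of the highest peak, the genes ran Dad, shn, tkv, Med, sax, put, brk, dpp and Mad. Each gene's range over the replicates overlapped that of its neighbour in this order, except between Med and sax, where the lowest Med value was 3.27 and the highest sax value 2.16. The places of Med and sax rest on peaks within 1 kb of other genes' starts. The promoter summit of Med, also within 1 kb of another gene's start, had a mean of only 0.853. Dad, shn and tkv could not be ranked among themselves beyond their spread: shn was first in replicate 1, Dad in replicate 2 and tkv in replicate 3. Leaving out replicate 2 put tkv first.

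**Figure D4:**
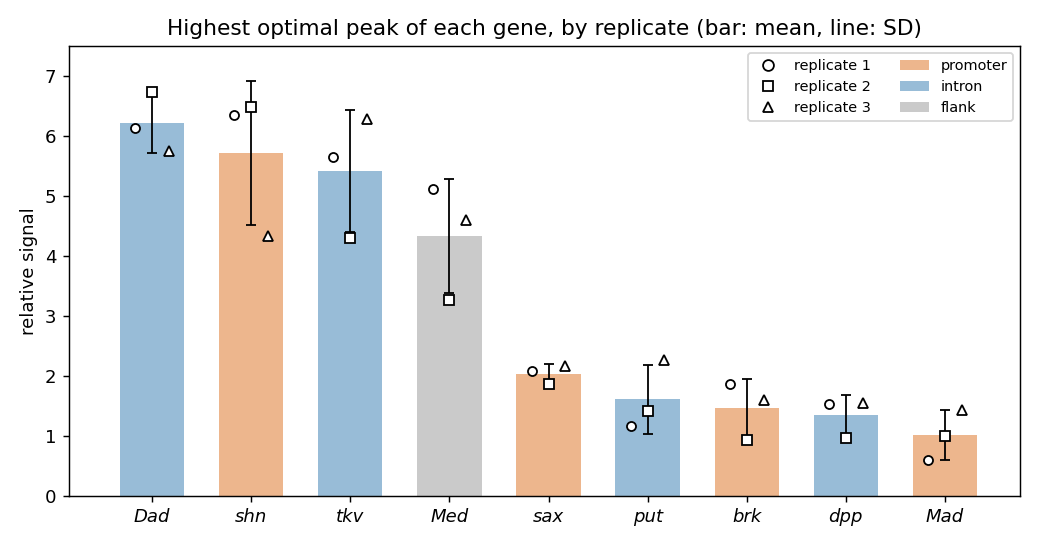
Relative signal of the highest optimal peak of each gene (bars, mean; lines, SD; symbols, replicates), with bar colours for the position of the peak. The peaks of Dad, shn, tkv and Med lie between 3.27 and 6.74 in every replicate, and those of the other 5 genes at or below 2.26. The peaks shown for Med and sax lie within 1 kb of other genes' starts.

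Motif matches within 50 bp of the summits were counted beside the same count over all 9264 optimal peaks. The VP box was found at 2 of the 74 summits (2.70%), one in Dad and one in shn, against 2.34% of all optimal peaks. The C/EBP site was found at 4 (5.41%), 2 of them in shn, 1 in Dad and 1 beside Med, against 1.96%. In both the Dad window and the shn window at 11175559 it is the same palindrome as the VP box.

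The Brinker site was found at 12 of the 74 summits (16.2%), against 9.34% of all optimal peaks. These were 6 of 33 in shn, 4 of 7 in Dad, 1 of 18 in tkv and 1 of 3 at brk. The 74 windows of 101 bases share no bases with each other. Whole peak intervals of neighbouring summits can, so counts over intervals are not independent. GAGAG was found at 11 (14.9%), against 16.7% of all peaks, and the E box CAGCTG at 3 (4.05%), against 5.43%. The silencer element through which Mad, Medea and Schnurri act was found in no 101-base window, and in the whole interval of 1 member peak, in an intron of shn, against 14 of 9264 intervals of all peaks. A match describes the bases and is no evidence of which protein was bound there.

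Beyond the 10 genes, 41 further annotated genes of the pathway were counted. An optimal summit lay in or within 1 kb of 21 of them (51.2%), a promoter summit at 16 (39.0%) and an intron summit at 15 (36.6%). Over all protein-coding genes these shares were 33.9%, 27.5% and 9.16%. The pathway shares were not matched for gene length, and the list was chosen with earlier results of these data known. Of the 13 genes for ligands and extracellular proteins, 7 had a summit, the highest being those of magu (2.42 ± 0.425, n = 3), the follistatin gene Fs (2.40 ± 0.370) and the glypican gene dlp (2.31 ± 0.430). Of the other receptor genes wit, a type II receptor gene, had an intron peak of 3.86 ± 0.258 and babo, a type I receptor gene of activin signalling, had no optimal summit. Of 10 genes for intracellular proteins 6 had a summit, led by the corepressor genes CtBP (4.76 ± 0.587) and gro (3.07 ± 0.946) and by Snoo (2.42 ± 0.289). Of 16 genes described as targets 7 had a summit: ush had 16.2 ± 0.910, tin 2.17 ± 1.35 and bi 1.15 ± 0.275. Among the target genes without a summit were salm, salr and vg.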

How the data were processed

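ChIP-seq peak lists of 3 biological replicates, their pooled reads and the optimal list were used. Per the depositors' note files, each replicate or pooled list comes from the alignments of that replicate or of all of them together with 1 further file, and the optimal list was derived from all 4 of them. No aligner, peak caller or reproducibility threshold is stated, these being not given in the sources used here. The unit is the signal column as deposited by the authors, which is not scaled between libraries. Lists in the older dm3 coordinates were not used.

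The summit of an entry was its start plus the summit offset, written 1-based. Ensembl's gene models for dm6 gave the genes, start sites and exons, and RefSeq gave the bases. For each optimal peak, the highest replicate entry overlapping it by at least 1 bp was taken, and its signal was divided by the median of that quantity over all optimal peaks of the replicate. Values are the mean ± SD of the replicates with an entry. Biological replicates share 1 line and 1 group, so no test was made and no p-value is given. The lists hold no read counts, so counting error is unknown.

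The members, pathway list and motifs were chosen with earlier results of these data known. By the naming rule all 10 genes are reported, and of the wider pathway up to 3 genes per role with the highest relative signal. The rule asked for each summit in each replicate; for tkv and shn the weaker summits are given as ranges and in the plot of all summits. The genes babo, salm, salr and vg were named after their counts were seen. Of 42 listed pathway genes, 41 were found by symbol. Assignment was tested on simulated summits. Python 3.11.15, NumPy 2.4.6, pandas 2.3.3 and matplotlib 3.10.9 were used.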

Additional observations from a re-analysis of the deposited data

How the results depend on the processing

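Of the alternative values for the counts of genes and summits and for the median over genes of the highest peak, 72 stayed within 1.5 times the value reported, or within its spread, and 7 moved. With promoters defined by 500 bp, 14 promoter summits remained in that class. Among the stronger 50% of optimal peaks the members had 43 summits, 10 of them in promoters at 5 genes and 31 in introns. With summits within 1 kb of another gene's start site left out, 7 genes had an optimal summit and 5 had a promoter summit. That alternative was chosen after seeing the data. Dividing by the median of all entries of a replicate, a lower divisor, gave a median over the 9 genes of 6.27, against 2.03, with the order of the genes unchanged. Leaving out replicate 2 put tkv before Dad and shn, and put and brk changed places without replicate 2 or without replicate 3; without replicate 1 the order was kept. The order was also kept with the pooled signal, with entries whose summit lies within 100 bp, and with the overlapping entry of the nearest summit, the last chosen after seeing the data. Motif shares moved with the window. Within 25 bp the C/EBP site was at 2 of 74 summits (2.70%, against 1.04% of all optimal peaks), and over whole intervals at 6.76%, against 4.34%. The Brinker site was at 10.8% within 25 bp, against 4.66%, and at 40.5% over intervals, against 32.6%. The VP box was at 1.35% within 25 bp, against 1.30%, and at 6.76% over intervals, against 5.93%. GAGAG was at 8.11% and 52.7%, against 9.07% and 46.8%. The E box was at 0 of 74 within 25 bp, against 2.48%, and at 6.76% over intervals, against 18.8%. No paired analysis was possible because there is 1 group.

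The relative signal removes differences in scale between replicates but not in noise, and the lists give no depth. Summits in 1 interval share a replicate value. A summit within 1 kb of a gene need not act on it, and 10 of the 74 lie within 1 kb of another gene's start.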
